A study of Mus musculus with 6 samples.

Results

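The Ly6 family genes described here are *Ly6a*, *Ly6c1*, *Ly6d*, *Ly6e*, *Ly6g6c*, *Ly6k*, *Lypd3*, *Psca* and *Slurp1*, which encode small surface or secreted proteins. They were picked by symbol from the family, with earlier results of these data known. All 9 were among the 24982 genes of the deposited coverage files. Gene expression had been measured by RNA-seq in 2 keratinocyte lines from the neonatal skin of C57/BL6 mice, with 3 libraries per line labelled as replicates 1 to 3. The KSFM-Ca2+ cells were derived and kept in a low calcium serum-free medium. The DKSFM cells descended from the KSFM-Ca2+ cells and had been adapted to a defined serum-free medium with a higher calcium content. Neither line received a further treatment. The comparison asks how the 2 lines differ, and the adaptation and the medium in use cannot be told apart. What a replicate was is not stated, so the p-values measure only the spread between these libraries, which may be technical.

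Ly6 proteins share a compact, disulfide-rich fold that is also found in the urokinase receptor uPAR. Most are held on the outer face of the plasma membrane by a glycosylphosphatidylinositol (GPI) anchor, while a few, such as Slurp1, are secreted. Several are used as markers of stem, progenitor or blood cells, and others are typical of the upper layers of stratified epithelia.

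The values are the mean read coverage per base of each gene, listed to 1 decimal, and are therefore comparable between genes of unequal length. The sum of all genes in a library, a measure of its depth, came to 1601676, 1238411 and 1057750 for KSFM-Ca2+ replicates 1 to 3, and to 1174348, 1239438 and 1170675 for the DKSFM libraries. Normalized coverage below is this value after scaling between libraries. Fold changes were tested with limma across the 12409 genes that reached 0.5 in 3 or more libraries after scaling, on the scale of log2(normalized coverage + 0.1). A gene was counted as higher or lower when its adjusted p was under 0.01 and the difference was at least 2-fold.

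The 9 genes were chosen with earlier results of these data known, so the counts below describe them and do not test the family. Of the 9 genes, 8 passed the filter, and 7 of these were higher in the DKSFM cells, where the same threshold took 1636 genes or 13.2% of all tested genes. None of the 8 was lower by limma at that threshold, against 1307 genes or 10.5% of those tested. At an unadjusted p under 0.05 the count of lower members was also 0. In 8 of the 8 tested genes every DKSFM library lay above every KSFM-Ca2+ library, which held for 41.2% of tested genes in that direction; for *Ly6e*, however, the direction turned under quantile normalization. *Slurp1* passed the filter only through the DKSFM libraries, so its direction was fixed in advance, while *Ly6k* did not pass and was not tested. In these bulk libraries, fewer cells of a type and less RNA per cell cannot be told apart.

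**Figure D1:**
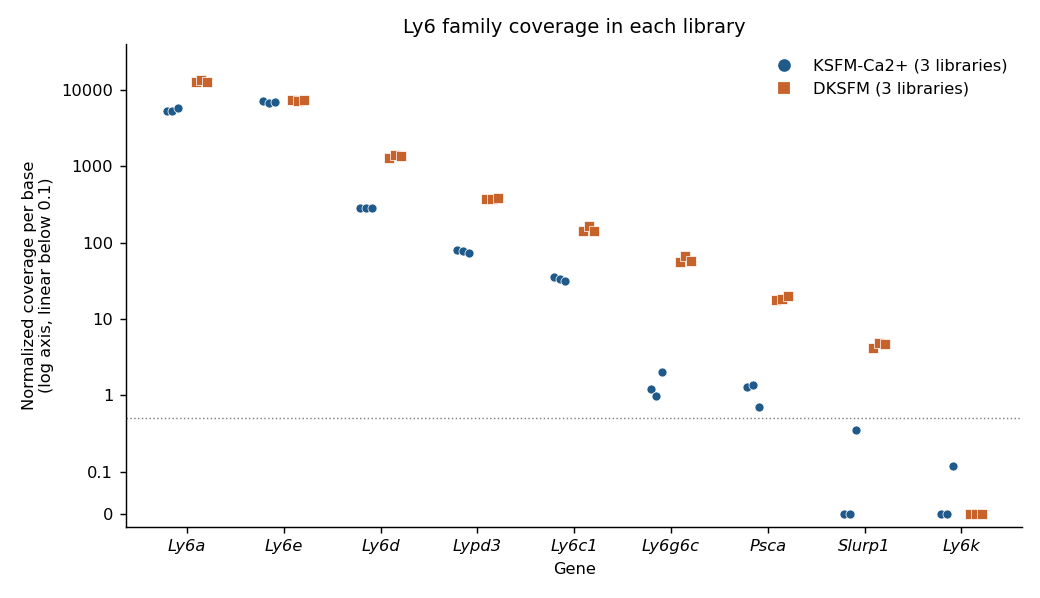
Normalized coverage per base (vertical axis, logarithmic above 0.1 and linear below it) of the 9 genes in each of the 6 libraries. Circles are KSFM-Ca2+ libraries, squares are DKSFM libraries, and the dotted line marks the coverage floor of 0.5; *Ly6a* and *Ly6e* reach 5310 or more in every library, and *Ly6k* lies below the floor in every library.

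*Ly6a* encodes stem cell antigen-1 (Sca-1), a GPI-anchored protein widely used to mark stem and progenitor cells of the mouse, and *Ly6c1* encodes one form of the Ly6C antigen of monocytes and some other cells. The genes lie on the minus strand of chromosome 15 (GRCm38), *Ly6a* at chr15:74994877-74998031 and *Ly6c1* at chr15:75044018-75048830. Their likeness matters for reading the coverage, and is shown by the first 120 coding bases of the transcripts *Ly6a*-201 and *Ly6c1*-201 of GENCODE M21, in which capitals mark the 8 positions that differ.
Ly6a: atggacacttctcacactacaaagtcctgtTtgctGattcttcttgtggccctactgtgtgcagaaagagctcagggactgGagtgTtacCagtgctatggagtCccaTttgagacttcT
Ly6c1: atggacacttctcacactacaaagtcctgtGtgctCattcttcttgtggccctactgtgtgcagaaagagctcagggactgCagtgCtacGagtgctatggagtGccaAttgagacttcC
Over the aligned coding sequences, 329 of 393 bases were identical (83.7%). The longest identical run between annotated transcripts of the 2 genes was 118 bases, longer than a read of 85 bases. Of the 1311 different 85-base words in *Ly6a* transcripts, 42 (3.20%) also occurred in *Ly6c1*. Of the 1764 words in *Ly6c1* transcripts, 261 (14.8%) occurred in another gene, 219 of them in *Ly6c2*. The other 7 genes shared no word of that length with any other annotated transcript.

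*Ly6a* was among the most abundant transcripts of both lines. Its normalized coverage was 5350, 5310 and 5750 in KSFM-Ca2+ replicates 1 to 3, against 12600, 13400 and 12900 in DKSFM replicates 1 to 3. All DKSFM libraries lay far above all KSFM-Ca2+ libraries. The means were 5471 ± 239 and 12955 ± 386 (SD, n = 3 each), a 2.37-fold difference that placed *Ly6a* at rank 10 of all genes in the KSFM-Ca2+ cells and rank 3 in the DKSFM cells. The log2 fold change was 1.24 (SE 0.04, limma adjusted p = 4.25e-08).

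The pair of primers that the study used for Sca-1 mRNA by quantitative PCR bears on which gene such an assay reads, and is shown 5′ to 3′.
Sca-1 forward: aggaggcagcagttattgtgg
Sca-1 reverse: cgttgaccttagtacccagga
Both primers matched exactly only *Ly6a* among all annotated transcripts, 5 of its 6 transcripts in each case. The product between them was 114 bases long and lay within the coding sequence. In *Ly6c1*, the best position had 8 mismatches to either primer. The closest related gene was *Ly6f*, with 4 mismatches to the forward and 2 to the reverse primer.

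*Ly6c1* was far less abundant than *Ly6a* in both lines. Its normalized coverage was 35.1, 33 and 31.1 in the KSFM-Ca2+ replicates and 143, 163 and 143 in the DKSFM replicates. The 2 lines did not overlap, and the means of 33.1 ± 1.99 and 150 ± 11.8 (SD, n = 3 each) differed 4.53-fold. The log2 fold change was 2.17 (SE 0.06, limma adjusted p = 2.63e-08).

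Reads shared with *Ly6a* could enter the coverage of *Ly6c1*. *Ly6c1* coverage amounted to 0.656%, 0.622% and 0.542% of that of *Ly6a* in the KSFM-Ca2+ replicates and 1.13%, 1.22% and 1.12% in the DKSFM replicates. The ratio of *Ly6a* to *Ly6c1* was thus 152 to 184 in the KSFM-Ca2+ cells and 81.9 to 89.6 in the DKSFM cells, and was not constant. The 3.20% of *Ly6a* words that *Ly6c1* also holds counts different words over all annotated transcripts. It is not a share of reads and cannot be set against these percentages. How the authors' quantification divided shared reads is not stated, so the part of *Ly6a* reads in the *Ly6c1* values was not tested and *Ly6c1* is uncertain. *Ly6c2*, the closest copy of *Ly6c1*, with 384 of 393 coding bases identical, had a mean normalized coverage of 0.406 in the KSFM-Ca2+ and 0.0708 in the DKSFM cells and was not tested.

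*Ly6e* encodes an interferon-inducible GPI-anchored protein with a broad tissue distribution. Its normalized coverage was 7130, 6800 and 6970 in the KSFM-Ca2+ replicates and 7300, 7250 and 7480 in the DKSFM replicates. The libraries of the 2 lines lay close together without overlap, with means of 6964 ± 163 and 7344 ± 118 (SD, n = 3 each). The log2 fold change of 0.08 (95% confidence interval 0.01 to 0.15, limma adjusted p = 0.0461) missed the threshold, and its interval stayed far below a 2-fold change. It became -0.17 under quantile normalization, so no direction is given for this gene. *Ly6e* stood at rank 5 of all genes in the KSFM-Ca2+ and rank 7 in the DKSFM cells.

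Hence the order of the 2 leading genes was exchanged between the lines. *Ly6e* lay above *Ly6a* in each KSFM-Ca2+ library, with *Ly6a* to *Ly6e* ratios of 0.752, 0.781 and 0.825. *Ly6a* lay above *Ly6e* in each DKSFM library, with ratios of 1.73, 1.85 and 1.72. A ratio within a library does not depend on a scaling factor for that library.

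*Ly6d* and *Lypd3* encode GPI-anchored proteins of stratified epithelia, *Ly6d* also being a marker of early B cell progenitors, and *Lypd3* (C4.4A) having 2 Ly6-type domains and a suprabasal location in skin. *Ly6d* had a normalized coverage of 283, 288 and 282 in the KSFM-Ca2+ replicates and 1280, 1410 and 1380 in the DKSFM replicates. *Lypd3* had 79, 76.6 and 74 in the KSFM-Ca2+ replicates and 368, 372 and 384 in the DKSFM replicates. Both genes were tightly grouped within each line and widely apart between the lines. The means of *Ly6d* were 284 ± 3.44 and 1355 ± 70.6, and those of *Lypd3* 76.5 ± 2.49 and 374 ± 8.33 (SD, n = 3 each). *Ly6d* was thus 4.77-fold higher in the DKSFM cells, with a log2 fold change of 2.25 (SE 0.04, limma adjusted p = 1.96e-09). *Lypd3* was 4.89-fold higher, with a log2 fold change of 2.29 (SE 0.03, limma adjusted p = 1.01e-09). The confidence intervals of the 2 log2 fold changes, 2.16 to 2.34 and 2.21 to 2.37, overlapped, and a difference between them was not tested. *Ly6d* lies at chr15:74762056-74763620 and *Lypd3* on another chromosome, at chr7:24636550-24641118. *Lypd3* overlaps the antisense gene *Gm26550* on the opposite strand over 1367 bases, and sharing of reads between these genes was not tested.

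*Ly6g6c*, which encodes a GPI-anchored protein of the major histocompatibility complex region of chromosome 17, and *Psca*, which encodes prostate stem cell antigen, a GPI-anchored protein of several epithelia, were near the lower end of coverage in the KSFM-Ca2+ cells. *Ly6g6c* had a normalized coverage of 1.22, 0.989 and 2.01 in the KSFM-Ca2+ replicates and 55.6, 66.5 and 57.8 in the DKSFM replicates. *Psca* had 1.3, 1.38 and 0.708 in the KSFM-Ca2+ replicates and 17.9, 18 and 20 in the DKSFM replicates. The ranges of the 2 genes overlapped in the KSFM-Ca2+ cells and were separate in the DKSFM cells. The means of *Ly6g6c* were 1.4 ± 0.533 and 60 ± 5.73 and those of *Psca* 1.13 ± 0.368 and 18.7 ± 1.2 (SD, n = 3 each). The log2 fold change of *Ly6g6c* was 5.37 (SE 0.22, limma adjusted p = 1.3e-07) and that of *Psca* 3.98 (SE 0.22, limma adjusted p = 6.88e-07). With a pseudocount of 1 in place of 0.1 they were 4.68 and 3.22, so the folds of these low genes depend on that choice while both calls held.

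*Ly6g6c* (chr17:35065388-35070050, plus strand) overlaps *Mpig6b* on the opposite strand over 797 bases. *Mpig6b*, which encodes an inhibitory receptor of platelets and megakaryocytes, had a mean normalized coverage of 0.639 ± 0.284 in the KSFM-Ca2+ and 3.74 ± 0.167 in the DKSFM cells (SD, n = 3 each), a log2 fold change of 2.45 (SE 0.26, limma adjusted p = 4.19e-05). The libraries were directional and the authors aligned them with a strand setting, but how the coverage values were made from the alignments is not stated, so whether reads of the overlap were shared between both genes was not tested.

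*Slurp1* encodes a secreted protein of keratinocytes that acts on nicotinic acetylcholine receptors and whose loss causes a palmoplantar keratoderma in humans. It was listed at 0 in KSFM-Ca2+ replicates 1 and 2 and had a normalized coverage of 0.354 in replicate 3, against 4.14, 4.9 and 4.77 in the DKSFM replicates. The KSFM-Ca2+ values are at the limit of the files, since a listed step of 0.1 corresponds to about 2.02 reads over the median length of its annotated transcripts. The log2 fold change of 4.82 (SE 0.55, limma adjusted p = 6.02e-05) depends on the pseudocount and was 2.34 with a pseudocount of 1. It was 5.6 without KSFM-Ca2+ replicate 3 and 3.35 when that replicate was the only KSFM-Ca2+ library. *Slurp1* overlaps *Them6* on the opposite strand over 322 bases. *Them6* had mean normalized coverages of 15.7 ± 0.472 and 17.3 ± 0.953 (SD, n = 3 each) and did not pass the threshold (limma adjusted p = 0.0559).

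*Ly6k* encodes a GPI-anchored protein known mainly from testis and sperm. It was listed at 0 in 5 of the 6 libraries and at 0.1 in KSFM-Ca2+ replicate 3. No difference was detectable at this depth. *Ly6k* overlaps the antisense gene *Gm17189* on the opposite strand over 3113 bases.

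**Figure D2:**
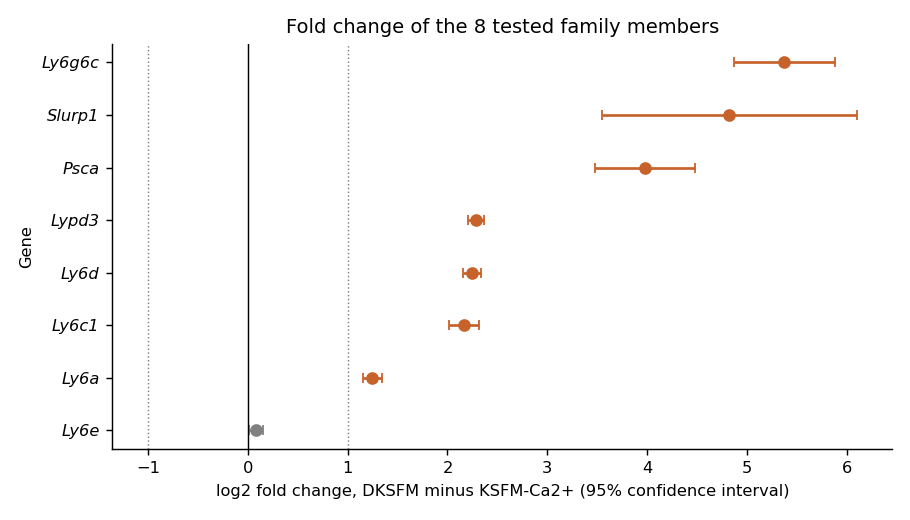
Log2 fold change (horizontal axis, DKSFM minus KSFM-Ca2+) of the 8 tested genes, with 95% confidence intervals from limma; dotted lines mark a 2-fold change in either direction. The estimates run from 0.08 for *Ly6e*, drawn in grey because it missed the threshold and turned negative under quantile normalization, to 5.37 for *Ly6g6c*, and the interval is widest for *Slurp1*.

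Among the 9 genes the order of levels was similar in both lines below the top pair. By means it ran *Ly6d*, *Lypd3*, *Ly6c1*, *Ly6g6c*, *Psca*, *Slurp1* and *Ly6k* in either line. In the DKSFM cells no neighbors in this order overlapped. In the KSFM-Ca2+ cells *Ly6g6c* overlapped *Psca*, and *Slurp1* overlapped *Ly6k*. *Psca* lay above *Ly6g6c* in KSFM-Ca2+ replicates 1 and 2, so that their order by means rested on replicate 3. Against all tested genes, *Ly6c1* moved from above 56.6% of them in the KSFM-Ca2+ cells to above 87.3% in the DKSFM cells, *Ly6g6c* from 11.3% to 70.6% and *Psca* from 9.8% to 42.6%.

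The summed normalized coverage of the 9 genes was 12879, 12511 and 13102 in the KSFM-Ca2+ replicates and 21800, 22669 and 22317 in the DKSFM replicates. The means of 12831 ± 298 and 22262 ± 437 (SD, n = 3 each) differed 1.74-fold, and no test was made on this sum. The sum was carried by *Ly6a* and *Ly6e* in both lines. *Ly6a* made up 41.6% to 43.8% of it in the KSFM-Ca2+ and 57.6% to 59% in the DKSFM libraries, whereas *Ly6e* made up 53.2% to 55.3% and 32% to 33.5%. The other 7 genes together made up 2.98% to 3.2% of the sum in the KSFM-Ca2+ libraries and 8.56% to 8.99% in the DKSFM libraries. The 9 genes held 1.02% to 1.06% of all listed coverage in the KSFM-Ca2+ and 1.75% to 1.83% in the DKSFM libraries.

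**Figure D3:**
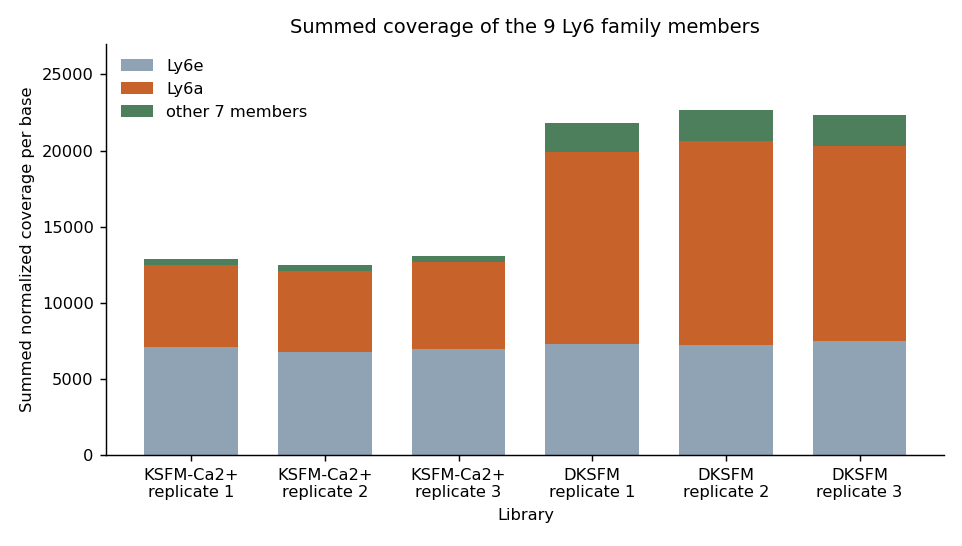
Summed normalized coverage per base of the 9 genes (vertical axis) in each library, divided into *Ly6e*, *Ly6a* and the other 7 genes. The *Ly6e* portion is of similar height in the 6 libraries, and the *Ly6a* portion is higher in the 3 DKSFM libraries, where the sum is 21800 to 22669.

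The genes *Psca*, *Slurp1*, *Ly6d*, *Ly6k*, *Ly6e*, *Ly6a* and *Ly6c1* lie on 1 segment of chromosome 15 (chr15:74714839-75048830, GRCm38) of 334 kb, and *Ly6g6c* and *Lypd3* lie elsewhere. The files listed 12 further genes on this segment, of which 7 were tested, 3 were higher and 2 were lower in the DKSFM cells, where 13.2% and 10.5% of all tested genes were. *Lynx1*, next to *Ly6d*, had a normalized coverage of 8.54, 8.41 and 8.73 in the KSFM-Ca2+ replicates and 26.8, 25.2 and 27.6 in the DKSFM replicates, a log2 fold change of 1.62 (SE 0.06, limma adjusted p = 5.3e-08). *2010109I03Rik*, which RefSeq names *Ly6m*, had 0.305, 0.297 and 0.472 in the KSFM-Ca2+ replicates and 5.1, 5.2 and 5.09 in the DKSFM replicates, a log2 fold change of 3.53 (SE 0.18, limma adjusted p = 4.14e-07). Neither overlapped between the lines. *2010109I03Rik* and *Ly6i*, the third higher gene, were below 0.5 in every KSFM-Ca2+ library. They passed the filter only through the DKSFM libraries, so their direction, though not the call, was fixed in advance.

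The 2 lower genes of the segment were the neighbors *Gml* and *Gml2*, which encode GPI-anchored relatives of the Ly6 proteins. *Gml* had 2.29, 2.37 and 2.48 in the KSFM-Ca2+ replicates and 0.318, 0.2 and 0.53 in the DKSFM replicates, a log2 fold change of -2.53 (SE 0.27, limma adjusted p = 4.06e-05). *Gml2* had 2.21, 1.68 and 3.3 in the KSFM-Ca2+ replicates and 0.212, 0.699 and 0.424 in the DKSFM replicates, a log2 fold change of -2.25 (SE 0.37, limma adjusted p = 0.000597). They lie between *Ly6d* and *Ly6e*, and their coverage was low in both lines. Each reached 0.5 in 1 DKSFM library only, so that they met the filter mainly through the KSFM-Ca2+ libraries, and with the filter on every library 0 neighbors were lower. *Gml2* was not called by the test against 2-fold itself. *Ly6i*, between *Ly6e* and *Ly6a*, had mean normalized coverages of 0.318 and 0.832 and a log2 fold change of 1.13 (SE 0.24, limma adjusted p = 0.00254). This call was lost in 8 of 18 alternatives, among them the fits without KSFM-Ca2+ replicate 1, KSFM-Ca2+ replicate 2 or DKSFM replicate 3. *Ly6i* shares a coding run of 80 identical bases with *Ly6a*, slightly less than a read.

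**Figure D4:**
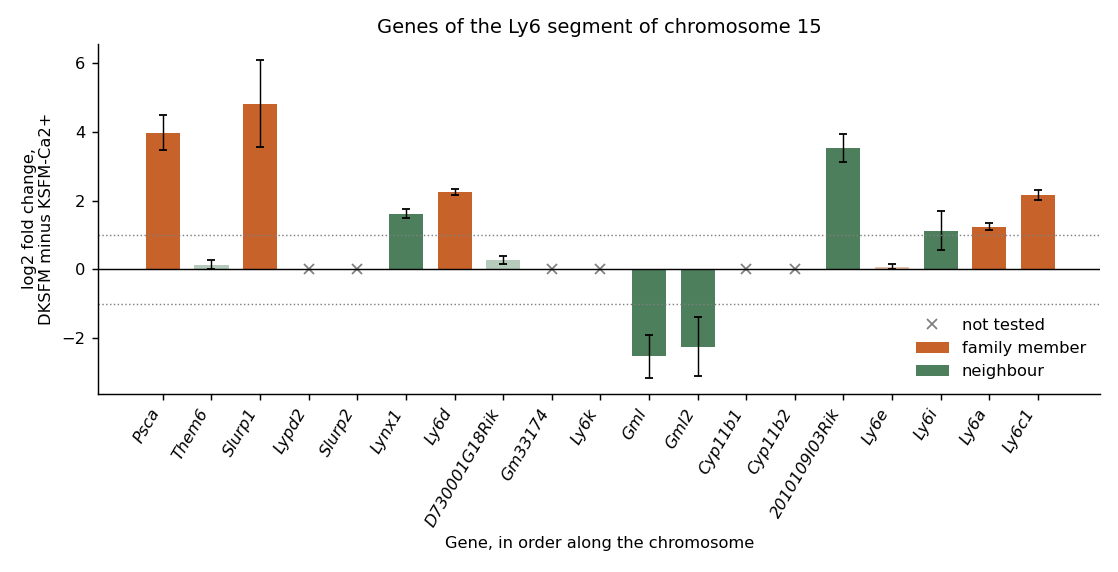
Log2 fold change (vertical axis, DKSFM minus KSFM-Ca2+) of the 19 listed genes of the segment in their order along chromosome 15, with 95% confidence intervals from limma; pale bars missed the threshold, crosses are genes not tested and dotted lines mark a 2-fold change. *Gml* and *Gml2* are the 2 bars below 0, and *Ly6e*, whose sign turned under quantile normalization, lies between the higher *2010109I03Rik* and *Ly6i*.

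For 3 of the 9 genes, *Ly6c1*, *Ly6g6c* and *Lypd3*, the RefSeq promoter table (GRCm38.p6) held sequence, in 4 windows from 250 bases before to 50 bases after a transcript start. Motifs were searched in these windows on both strands. The AP-1 motif TGANTCA occurs in 7.81% of 32851 mouse promoter windows of the same length and the STAT motif TTCNNNGAA in 8.3%, and neither was present in the 4 windows. The TATA box motif TATAAA, present in 13.6% of windows, occurred in *Ly6g6c* at position -30 from the start and in 1 of the 2 *Ly6c1* windows at position -143, but not in that of *Lypd3*. The 150 bases before the RefSeq transcript start of *Ly6g6c* (chr17:35067175-35067324, plus strand), the gene with the highest log2 fold change, whose GENCODE span begins further upstream, and of that *Ly6c1* window (chr15:75048838-75048987, minus strand) are shown with the motif in capitals.
Ly6g6c: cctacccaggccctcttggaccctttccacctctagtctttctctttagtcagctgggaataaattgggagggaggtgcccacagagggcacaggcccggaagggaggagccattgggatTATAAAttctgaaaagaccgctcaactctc
Ly6c1: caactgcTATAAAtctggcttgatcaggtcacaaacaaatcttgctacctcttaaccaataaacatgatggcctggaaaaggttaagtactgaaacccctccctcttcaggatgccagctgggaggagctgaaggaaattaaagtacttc
A match describes these letters only, and binding was not measured.

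Other genes with the Ly6/uPAR domain were called in both directions. Of 39 such genes outside the 9, 34 were listed under the symbols used, 12 were tested, 4 were higher and 3 lower in the DKSFM cells, and 15 were listed at 0 in every library. *2010109I03Rik* (*Ly6m*), called higher on the segment above, is not among these 34. The higher genes *Lynx1* and *Ly6i* and the lower genes *Gml* and *Gml2* were already counted on that segment. The counts of this list and of the segment are therefore not separate results. Of all tested genes, 13.2% were higher and 10.5% lower. Their median log2 fold change was 0.28, and 0.11 with a pseudocount of 1, against 0 for all tested genes. *Lypd5*, a GPI-anchored relative of *Lypd3*, went from a mean normalized coverage of 0.123 to 3.26, a log2 fold change of 3.92 (limma adjusted p = 3.02e-07) that was as low as 1.92 over the alternatives. *Lypd5* and *Ly6i*, 2 of the 4 higher genes, passed the filter only through the DKSFM libraries, so their direction was fixed in advance. *Plaur*, which encodes the urokinase receptor itself, went the opposite way, from 27.3 to 3.5, and its log2 fold change was -2.94 (limma adjusted p = 1.57e-07). *Plaur* was the most abundant gene of the list in the KSFM-Ca2+ cells and *Lynx1*, which encodes a GPI-anchored modulator of nicotinic receptors, in the DKSFM cells, with a mean of 26.5. The count of higher genes was 2 under quantile normalization, with a pseudocount of 1, with the filter on every library, by the test against 2-fold itself and with the libraries marked as combined only.

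Genes for the enzymes that build and attach the GPI anchor were also examined. Of 30 genes for GPI anchor synthesis and remodelling, 28 were tested, 2 were higher and 1 was lower, against 13.2% and 10.5% of all tested genes, and the median log2 fold change was -0.01. At an unadjusted limma p under 0.05, 11 were higher and 12 lower. *Piga*, which encodes the catalytic subunit of the first step, had a log2 fold change of 1.03 (limma adjusted p = 1.33e-07), and *Dpm3*, which encodes a subunit of the mannose donor synthase, 1.28 (limma adjusted p = 4.84e-07). *Pign*, which encodes an ethanolamine phosphate transferase of the pathway, had -1.23 (limma adjusted p = 4.14e-07). These 3 calls were lost when the test was made against a 2-fold change itself. Summed over the list, normalized coverage was 1890 to 1900 in the KSFM-Ca2+ and 1900 to 1940 in the DKSFM libraries.

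Nicotinic acetylcholine receptor subunits, the known targets of Slurp1 and Lynx1, were scarce. Of 16 subunit genes, 12 were listed at 0 in every library and 1 was tested. This gene, *Chrnb1*, which encodes a muscle-type subunit, went from a mean normalized coverage of 6.34 to 1.18, a log2 fold change of -2.32 (limma adjusted p = 2.08e-06). *Chrna7* and *Chrna9*, which encode subunits described in keratinocytes, were listed at 0 in all 6 libraries.

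Since several of the 9 genes are typical of upper epidermal layers, suprabasal genes are given beside them. Of 16 genes of suprabasal differentiation, 13 were tested, 10 were higher in the DKSFM cells and none was lower by limma, against 13.2% and 10.5% of all tested genes. Of the 10, 5 passed the filter only through the DKSFM libraries, so their direction was fixed in advance (*Cnfn*, *Klk7*, *Calml3*, *Dsg1a* and *Dsc1*). *Ivl*, which encodes the cornified envelope protein involucrin, went the other way, from 21.3 to 13.5, and missed only the 2-fold limit (log2 fold change -0.66, limma adjusted p = 3.7e-06). It was the 1 gene lower at an unadjusted p under 0.05. The suprabasal keratin gene *Krt10*, with means of 3.49 and 5, also missed the 2-fold limit (log2 fold change 0.49, limma adjusted p = 0.00963). *Krtdap*, with means of 121 and 151, was not called. *Krt1* was listed at 0 in every KSFM-Ca2+ library, had a mean of 0.514 in the DKSFM cells and was not tested. The median log2 fold change, with the genes of fixed direction included, was 3.42, and 2.07 with a pseudocount of 1. The 5 called genes whose direction was not fixed were *Dmkn*, *Sbsn*, *Cdsn*, *Tgm1* and *Lor*. Their mean normalized coverages were 480, 58.1, 14.7, 4.81 and 0.331 in the KSFM-Ca2+ cells. In the DKSFM cells they were 4292, 795, 165, 23.4 and 3.99. Among the genes of fixed direction, *Cnfn*, a cornified envelope gene, went from a mean normalized coverage of 0.297 to 20.7. *Klk7*, which encodes a protease of desquamation, went from 0.105 to 18.8. *Calml3* and *Dsg1a* were listed at 0 in every KSFM-Ca2+ library and had means of 9.33 and 1.59 in the DKSFM cells. The summed normalized coverage of the list was 695 to 716 in the KSFM-Ca2+ libraries and 5410 to 5640 in the DKSFM libraries, mostly from *Dmkn*. With the filter on every library, which removes genes near 0 in one line, 4 genes of the list were called. The part of this shift in the Ly6 values was not tested.

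Keratinocyte markers were abundant in both lines. All 12 were tested, 4 were higher and 1 was lower in the DKSFM cells, against 13.2% and 10.5% of all tested genes, and the most abundant was *Krt14*, with mean normalized coverages of 11975 and 29719. *Krt14*, a keratin of basal cells, had a log2 fold change of 1.31 (limma adjusted p = 4.66e-08) and 0.93 under quantile normalization, below the 2-fold limit. *Perp* and *Dsp*, both of desmosomes, had log2 fold changes of 1.62 and 1.27, and *Epcam*, an epithelial adhesion gene, had -1.5 (limma adjusted p = 2.5e-09, 1.08e-08 and 2.81e-09). The summed coverage of the list was 21900 to 22300 in the KSFM-Ca2+ libraries and 47500 to 51700 in the DKSFM libraries.

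Because Sca-1 and Ly6C also mark blood and endothelial cells, markers of other cell types were examined. Of 12 immune cell markers, *Cd3e*, *H2-Aa*, *Adgre1* and *Itgax* were listed at 0 in every library, and 2 were tested. The most abundant, *Cd68*, had means of 11.5 and 17.6, and *Cd74* had a mean of 1.53 in the KSFM-Ca2+ cells and was listed at 0 in every DKSFM library. Of 9 endothelial markers, *Cdh5*, *Emcn*, *Vwf* and *Tie1* were listed at 0 in every library, and 2 were tested. *Pecam1*, the most abundant, had means of 2.78 and 7.58 and a log2 fold change of 1.42 (limma adjusted p = 3.95e-06), a call lost in the test against 2-fold itself. *Eng*, the other one tested, had means of 1.81 and 1.42 with overlapping libraries (log2 fold change -0.32, limma adjusted p = 0.168). The part of such cells in the Ly6 values was not tested.

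Of 10 fibroblast markers, 7 were listed at 0 in every library, among them *Col1a1*, *Col1a2* and *Col3a1*. *Twist2* was the most abundant in the KSFM-Ca2+ cells, with a mean of 7.34, against 0.0354 in the DKSFM cells, and passed the filter only through the KSFM-Ca2+ libraries. *Pdgfra*, the other one tested and the most abundant in the DKSFM cells, had means of 1.11 and 2.22 (log2 fold change 0.95, limma adjusted p = 0.000732) and missed the 2-fold limit. Of 7 melanocyte markers, *Tyr* and *Dct* were listed at 0 in every library. *Mitf*, the only one tested, had means of 3.51 and 17.7 and a log2 fold change of 2.31 (limma adjusted p = 1.43e-07). In the KSFM-Ca2+ and DKSFM libraries, the marker lists summed to 12.1 to 14.5 and 13.7 to 20.7 for immune cells, 4.75 to 5.11 and 8.59 to 9.89 for endothelium, 8.21 to 8.76 and 2.2 to 2.44 for fibroblasts, and 3.96 to 4.6 and 17.3 to 18.8 for melanocytes. Single genes carried most of each sum, *Cd68* that of immune cells, *Pecam1* that of endothelium, *Mitf* that of melanocytes, and *Twist2* in the KSFM-Ca2+ and *Pdgfra* in the DKSFM cells that of fibroblasts. *Pmel*, a pigment granule gene, had means of 0.594 and 0.343 with overlapping libraries and was not tested.

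Among 8677 tested genes outside the 9 with a mean normalized coverage of at least 10, the patterns most like that of *Ly6a* over the 6 libraries were those of *Ndufa4*, *Zfp68* and *Slc27a4*. Their root mean square differences of centered log2 values from *Ly6a* were 0.0255, 0.0261 and 0.0355, and their log2 fold changes were 1.21, 1.25 and 1.19. *Ndufa4* encodes a mitochondrial protein of the respiratory chain and *Slc27a4* a fatty acid transport protein of the epidermis. Nearest to *Ly6g6c* were *Endou*, *Pdlim2* and *Eya4*, with differences of 0.205, 0.23 and 0.234 and log2 fold changes of 5.17, 5.52 and 5.41. Their mean normalized coverages in the KSFM-Ca2+ cells were only 0.577, 2.72 and 0.488. At such levels the differences and fold changes also depend on the pseudocount. With 2 lines of 3 libraries, such a likeness mostly restates the size of the difference between the lines.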

How the data were processed

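The authors prepared strand-specific libraries from poly(A) RNA, read 85 bases from 1 end, and used STAR (mm10, RefSeq genes) and Salmon. The deposited signal is a mean coverage per base for each gene, rounded to 1 decimal and not scaled to library size. How coverage was made from the alignments, and the word combined in the file names of KSFM-Ca2+ replicate 3 and the DKSFM libraries, are not explained in the sources used here. As coverage is not a count, no count model was used.

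Scaling used a trimmed mean of M values without weights (30% of M and 5% of A values trimmed, factors 0.991 to 1.01). Genes reaching 0.5 after scaling in 3 libraries, or in 2 when 1 was omitted, were fitted with limma 3.58.1 in R 4.3.3 on log2(normalized coverage + 0.1), with the variance allowed to follow intensity. P-values were two-sided and Benjamini-Hochberg adjusted over all tested genes. A call needed an adjusted p under 0.01 and a 2-fold difference, as in the study. The procedure was tested on simulated data. Counts were not used, so intervals for counting error are not given; the rounding step of 0.1 limits low values.

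Groups were taken from the sample labels. The members and the gene lists were chosen with earlier results of these data known, so no set test was made. Besides the 9 members, up to 4 genes per list with the largest absolute log2 fold change among called genes averaging 1 or more in the higher line, the most abundant gene of each marker list, segment neighbors past the threshold and 3 genes each like *Ly6a* and the member with the largest absolute log2 fold change were named; other genes were named after their values were seen. Shared 85-base words and gene positions came from GENCODE M21, promoters from RefSeq and primers from the study's supplement, read with Python 3.11.15, pandas 2.3.3 and Biopython 1.88, and figures were drawn with matplotlib 3.10.9. Alternatives were other scalings (relative log expression, library totals, quantile normalization), pseudocounts of 0.5 and 1, a filter on every library or none, no trend, a test against 2-fold itself (treat), an adjusted p of 0.05, a replicate block, the libraries marked as combined only, and each library left out. Those for the family sum and the segment neighbors were added after seeing the data.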

Additional observations from a re-analysis of the deposited data

How the results depend on the processing

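Under the 18 alternatives the count of higher family genes was 7, except 6 with the filter on every library, which removed *Slurp1*, and the count of lower genes was 0 throughout. *Ly6e* became -0.17 (log2, limma adjusted p = 4.26e-05; over its alternatives 4.26e-05 to 1) under quantile normalization, where the family sum differed 1.59-fold; the cause was not tested. Leaving out 1 library gave 1610 to 1704 higher and 1295 to 1328 lower genes among all tested, and 1.71-fold to 1.77-fold for the family sum.

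With the filter on every library, which leaves fewer genes tested, 1032 genes were higher among all tested, and the counts of higher genes were 2 for other Ly6/uPAR genes, 0 for interferon response, 4 for suprabasal genes and 1 for segment neighbors, with lower counts of 1 for other Ly6/uPAR genes and 0 for immune markers, fibroblast markers and segment neighbors. The test against 2-fold itself, stricter by construction, gave 1062 higher and 785 lower genes among all tested, 2 higher other Ly6/uPAR genes, 0 higher and 0 lower GPI genes, 2 lower interferon genes, 0 higher endothelial markers and 1 lower segment neighbor. Other Ly6/uPAR genes had 2 higher under quantile normalization, a pseudocount of 1 and the combined libraries only, the last with 0 lower immune and fibroblast markers and 1 lower neighbor; its lone KSFM-Ca2+ library was assumed to vary like the others. Higher fibroblast markers numbered 0, and 1 without KSFM-Ca2+ replicate 3. Of 360 list counts, 343 stayed within 1.5 times. Many of these are counts of 0 or come from lists with 1 or 2 tested genes, so this tally says little about stability.

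Replicate numbers did not pair the libraries: correlations of same-numbered deviations were -0.065, 0.0455 and -0.0241, and only replicate 2 correlated best with its own number. The replicate block gave 7 higher family genes, and 1641 higher and 1304 lower genes among all tested. Values near the rounding step, those of *Slurp1*, *Ly6k*, *Psca* and *Ly6g6c* in the KSFM-Ca2+ cells, are the least precise.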

Other observations

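Interferon response genes are given because *Ly6a* and *Ly6e* are known to be inducible by interferon. Of 26 listed genes, 18 were tested, 1 was higher and 6 were lower in the DKSFM cells, against 13.2% and 10.5% of all tested genes. Of the 6, *Oasl2* passed the filter only through the KSFM-Ca2+ libraries, so its direction was fixed in advance. The median log2 fold change was -0.42, against 0 for all tested genes. *Irf1*, which encodes a transcription factor of the response, went from a mean normalized coverage of 61.2 to 21.6, a log2 fold change of -1.5 (limma adjusted p = 2.86e-07). *Gbp2* and *Gbp3*, which encode interferon-induced GTPases, had log2 fold changes of -2.07 and -1.75 (limma adjusted p = 3.52e-05 and 0.000546), the latter not called by the test against 2-fold itself. *Ifit2* went the other way, from 0.642 to 5.88. The most abundant gene of the list was *Ifitm3*, with means of 590 and 828 (log2 fold change 0.49, limma adjusted p = 1.15e-05), under the 2-fold limit. With it, the summed normalized coverage of the list was 964 to 1050 in the KSFM-Ca2+ and 1150 to 1240 in the DKSFM libraries, so that the sum and the counts went opposite ways. A relation to the Ly6 genes was not tested.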
